A study of Mus musculus with 42 samples.

Results

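Collagen genes are described here in mouse visceral adipose tissue (VAT), in stromal cells sorted or cultured from it, in its floating adipocytes and in its regulatory T (Treg) cells. The members are the 44 rows of the deposited count table whose symbol consists of Col, a number, a and a number, out of 55011 rows in all, and GENCODE M21 lists each of the 44 as protein coding. By type they comprise 11 fibrillar collagens, 6 basement membrane (type IV) collagens, 6 beaded filament (type VI) collagens, 9 fibril-associated collagens, 2 multiplexins, 3 hexagonal network collagens, 4 transmembrane collagens and 3 others. Poly(A) RNA of 42 libraries in 15 groups was measured. Stromal cells of genotype Pparg-Tdt carry the titles VmSC4 or VmSC5 and were taken either fresh, as 1000 double-sorted cells (n = 3 each), or after 8 days of adipogenic differentiation in culture (n = 3 each). Cells of the same genotype were also recovered after adoptive transfer into recipients named Kaeda in the series text, with 3 libraries of VmSC4-derived VmSC4, 3 of VmSC4-derived VmSC5 and 2 of VmSC5-derived VmSC5. Floating VAT cells labelled adipocyte came from Pparg-Tdt:Foxp3-DTR+ mice, in which the Foxp3 promoter drives a diphtheria toxin receptor in Treg cells, and from Pparg-Tdt:Foxp3-DTR- littermates (n = 2 each), and mice of both genotypes received diphtheria toxin. VmSC5 under adipogenic differentiation were cultured without or with Treg (n = 3 each), and with PBS or oncostatin M (OSM) at 10 ng per mL (n = 3 each), all of genotype Pparg-Tdt. The titles of the first pair say only without or with Treg, whereas the series text speaks of medium conditioned by Treg cells. The last groups are Treg cells, with the tissue label eVAT, titled WT (genotype OSM+/+) and KO (genotype OSMf/f) (n = 3 each). The labels do not give the gates of VmSC4 and VmSC5, the Cre line of the OSMf/f mice, or whether numbered replicates came from separate animals, so p-values measure the spread between these libraries, which may in part be technical.

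Collagens are secreted proteins whose 3 chains wind into a triple helix. Fibrillar collagens, chiefly types I, III and V in connective tissue, form the fibrils that bear tension. Type IV forms the sheet of the basement membrane, which in fat surrounds each adipocyte and each capillary. Type VI forms beaded filaments at the border between basement membrane and fibrils and is abundant in adipose tissue. Fibril-associated collagens such as types XII, XIV and XVI decorate fibrils, and the multiplexins XV and XVIII lie near basement membranes. In VAT, stromal cells of the fibroblast lineage are the main producers of fibrillar collagens, and adipocyte differentiation is known to move cells from a fibrillar to a basement membrane matrix.

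Total counts ranged from 8527769 to 12514783 in the fresh libraries, from 1967123 to 5044946 in the transferred cells, from 1841664 to 2606360 in the 8-day adipogenic cultures, from 5932453 to 7490677 in the floating cells, from 4648878 to 7933682 in the cultures without and with Treg, from 1072147 to 2078534 in those with PBS or OSM, and between 1507163 and 4438234 in the libraries of Treg cells. The unit of level is CPM, which scales counts by each library's total, and comparisons between genes use a level per length, which also divides by the longest annotated transcript. Log2 fold changes come from fits with TMM scaling, which adjusts these totals, so they can differ from the ratio of the CPM shown. Adipoq, which encodes adiponectin and is defining for adipocytes, stood between 4921 and 5668 CPM in the 8-day adipogenic libraries and between 5251 and 12158 CPM in the floating cells. The targeted gene Osm stood at 29.1, 28.4 and 34.1 CPM in WT Treg cells and, in the KO, at 9.83, 14.6 and 7.76 CPM, and reads outside the deleted exons cannot be told apart in a gene-level count. In bulk libraries fewer cells of a type and less RNA per cell cannot be told apart, which applies to each difference below.

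Collagen transcripts took very unequal shares of the libraries. In fresh cells they made up 3.21% ± 0.772 (SD) of counts in VmSC4 and 4.25% ± 0.289 in VmSC5. After transfer the shares were 15.2% ± 0.244 in VmSC4-derived VmSC4, 15.7% ± 0.546 in VmSC4-derived VmSC5 and 9.98% ± 0.129 in VmSC5-derived VmSC5. The transferred libraries all lay above the fresh ones, which lay above the adipogenic ones at 0.567% ± 0.0428 in VmSC4 and 0.525% ± 0.0384 in VmSC5. VmSC5 cultured without Treg gave 1.15% ± 0.0884 and with Treg 1.96% ± 0.148, while PBS gave 2.15% ± 0.0611 and OSM 5.88% ± 0.593. Floating cells held 0.489% ± 0.226 in DTR- and 0.0752% ± 0.0148 in DTR+, and the 6 Treg libraries held between 0.00535% and 0.00861%. Experiments differ in preparation and depth. Levels were tested across them only for transferred and for adipogenic cells against fresh cells, where these differences remain. The responses to OSM and to Treg were compared as a contrast, and no other test across experiments was made.

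**Figure D1:**
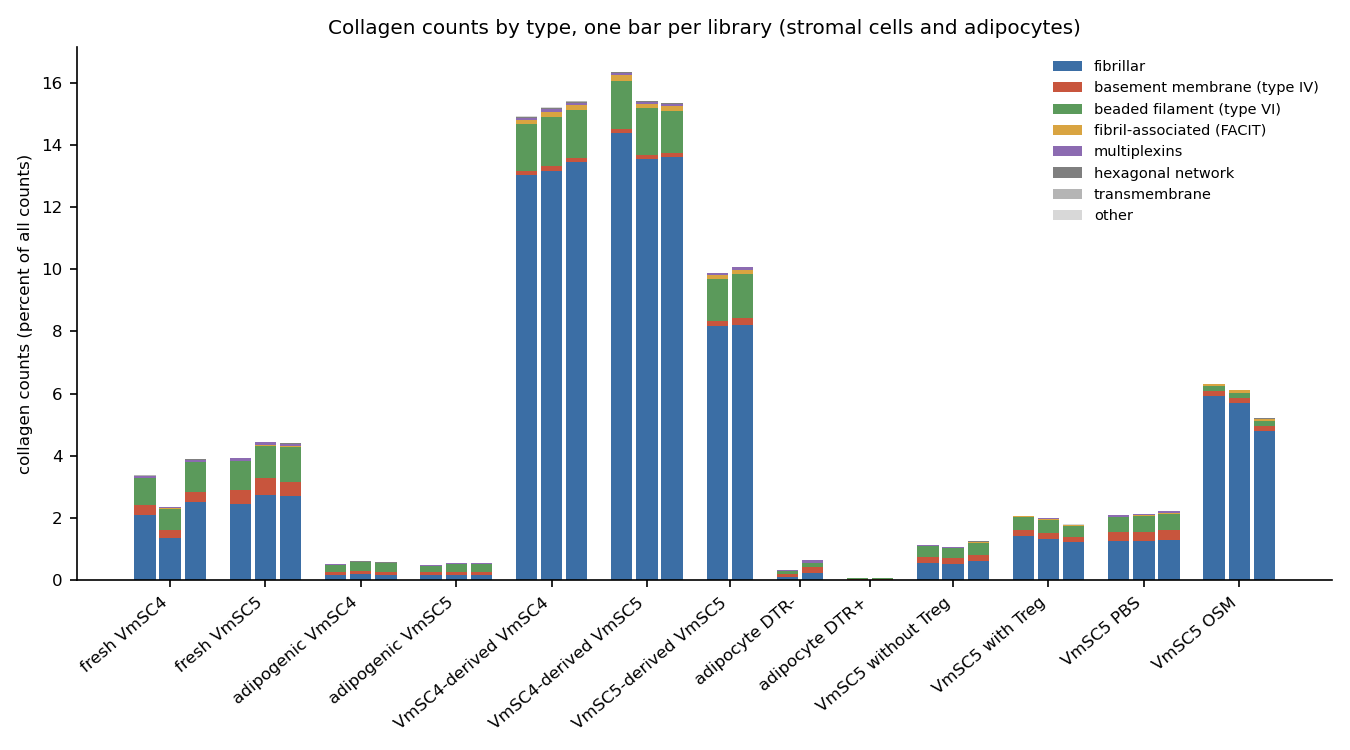
Percent of each library's counts that fell on the 44 collagen genes, 1 stacked bar per library for the 36 stromal and adipocyte libraries, with colours for collagen types. The transferred cells (9.89% to 16.3%) stand highest, mostly through fibrillar genes, and the floating DTR+ adipocytes lowest.

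Type III led the fibrillar collagens in most groups. Col3a1, the single chain of type III, averaged 9618 CPM in fresh VmSC4 and 13306 in fresh VmSC5, 71087, 76223 and 49991 in VmSC4-derived VmSC4, VmSC4-derived VmSC5 and VmSC5-derived VmSC5, and 785 and 63.1 in DTR- and DTR+ floating cells. In culture it averaged 485 and 542 CPM in adipogenic VmSC4 and VmSC5, 2043 without and 7712 with Treg, and 6847 with PBS and 42881 with OSM. Per length it ranked first among the 44 genes in 9 of the 13 groups that are not Treg cells, and Col6a1 ranked first in both 8-day adipogenic groups and in the cultures without Treg. The remaining group, DTR+ floating cells, was led by Col4a2.

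Type I is a trimer of 2 chains from Col1a1 and 1 from Col1a2. In the order fresh VmSC4, fresh VmSC5, VmSC4-derived VmSC4, VmSC4-derived VmSC5, VmSC5-derived VmSC5, DTR- and DTR+, mean Col1a1 levels were 2980, 3658, 36160, 33983, 15638, 174 and 4.62 CPM, and mean Col1a2 levels were 5003, 5986, 19962, 23075, 12132, 151 and 12.6 CPM. In the order adipogenic VmSC4, adipogenic VmSC5, without Treg, with Treg, PBS and OSM, the means were 246, 205, 828, 1831, 1548 and 5523 CPM for Col1a1 and 324, 270.5, 1294, 2439, 2167 and 3046 CPM for Col1a2. Over these 13 groups both chains were highest in the transferred cells and lowest in the DTR+ floating cells. The ratio of the 2 messages was not constant: per length, Col1a1 over Col1a2 averaged 0.523 in fresh VmSC4, 0.553 in fresh VmSC5, 1.64 in VmSC4-derived VmSC4, 1.33 in VmSC4-derived VmSC5 and 1.16 in VmSC5-derived VmSC5.

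Type V nucleates type I fibrils, and its chains Col5a1 and Col5a2 peaked, like type I, in the transferred VmSC4-derived cells. For Col5a1 the means ran, in the same order of the 7 groups not from culture, 575, 814, 1328, 1428, 1059, 110.0 and 16.0 CPM, and for Col5a2 1022, 1318, 2935, 3212, 2351, 141 and 18.0 CPM. Over the 6 culture groups, in the order given above, Col5a1 averaged 160.3, 130.1, 182, 182, 471 and 494 CPM and Col5a2 168, 167, 414, 727, 918 and 2512 CPM. The third type V chain, Col5a3, did not share the peak in transferred cells: its highest mean was 1164 CPM in fresh VmSC5, against 503 to 719 CPM after transfer. Col24a1 and Col27a1, minor fibrillar chains, reached 9.38 CPM in VmSC4-derived VmSC5 and 50.9 CPM in fresh VmSC5, and Col2a1, Col11a1 and Col11a2, the cartilage chains, stayed under 7 CPM in every group.

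Of the type IV chains, Col4a1 and Col4a2, which together form the common basement membrane trimer, were the most abundant. Col4a1 averaged 1195 CPM in fresh VmSC4, 2333 in fresh VmSC5, 637, 609 and 981 in the 3 transferred groups in the order above, and 880.2 and 149.8 in DTR- and DTR+ floating cells. Its means in the 6 culture groups were 498, 452, 1389, 1200, 1401 and 739 CPM. Col4a2 followed with 1355, 2262, 555, 314, 639, 738 and 195 CPM outside culture and 486, 485, 557, 494, 1453 and 858 CPM in culture. Here the order of groups differed from that of type I: fresh VmSC5 were highest in both chains. Per length, Col4a2 over Col4a1 lay between 0.869 and 1.33 in 9 groups, and lower in VmSC5-derived VmSC5 (0.676), VmSC4-derived VmSC5 (0.53) and the cultures without (0.411) and with Treg (0.426). The genes start head to head on chromosome 8 with annotated ends that overlap by 22 bases, and the strand setting of the counting is not given in the sources used here. Col4a3 to Col4a6, chains of specialised basement membranes, were concentrated in fresh and transferred cells, with highest means of 77.8, 82.7 and 143 CPM for Col4a3, Col4a4 and Col4a6 in fresh VmSC4 and 236 CPM for Col4a5 in VmSC4-derived VmSC4.

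Type VI held the largest share of collagen counts in the 8-day adipogenic cultures. Col6a1 averaged 3380, 4784, 5882, 6544, 6154, 481 and 81.9 CPM in the 7 groups outside culture and 1158, 992, 1796, 2047, 2597 and 834 CPM in the 6 culture groups. For Col6a2 the corresponding means were 2236, 3575, 4382, 3297, 3190, 414 and 57.5 CPM, then 1346, 1117, 1209, 1093, 1608 and 419 CPM. Col6a3, the largest of the chains and the source of endotrophin, averaged 633, 1080, 1763, 1901, 1355, 75.4 and 4.48 CPM, then 156, 159.6, 467, 397, 776 and 313 CPM. Type VI held 46.9% ± 2.09 of collagen counts in adipogenic VmSC4 and 43.1% ± 1.84 in adipogenic VmSC5, against 26.4% ± 2.44 and 24.0% ± 1.44 in the fresh cells. Col6a5 and Col6a6, which can take the place of Col6a3 in the trimer and lie with Col6a4 in a tandem row on chromosome 9, had another pattern. Col6a5 averaged 1658 CPM in fresh VmSC4, 459 in fresh VmSC5 and 2789 to 3071 after transfer, but 1.5 and 0.321 in the 8-day adipogenic cultures. Col6a6 averaged between 218 and 423 CPM in the fresh and transferred groups and at most 3.26 CPM in any other group.

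The multiplexin Col15a1 had means of 385, 573, 596, 297, 269.6, 534 and 53.9 CPM outside culture and 97.8, 113, 158, 77.4, 233 and 41.0 CPM in culture. Col18a1, which releases endostatin, averaged 207, 239.7, 261, 294, 494, 138 and 28.4 CPM, then 32.5, 34.2, 111, 97.2, 232 and 108 CPM. Among these, Col15a1 was the member whose level in DTR- floating cells came close to that in fresh VmSC5. Col12a1 and Col14a1, the fibril-associated chains with the highest levels, contrasted with each other. Col12a1 averaged 3.29, 6.06, 81.9, 74.6, 22.6, 3.72 and 0.136 CPM, then 47.7, 46.0, 59.6, 123, 154 and 497 CPM, so that it was low in fresh cells and highest with OSM. Col14a1 averaged 128, 194, 1295, 1413, 1065, 4.55 and 0.673 CPM, then 69.2, 79.4, 129, 136, 92.9 and 97.4 CPM, highest in the transferred cells. Of the other members that reached 20 CPM in a group, Col16a1 and Col8a1 peaked at 192 and 296 CPM in VmSC4-derived VmSC4, as did Col8a2 at 54.3 CPM, and Col28a1 at 92.4 CPM in VmSC5 with Treg. In all, 26 of the 44 members reached 20 CPM in a group mean, 13 reached 1000 CPM, and 11 stayed below 5 CPM everywhere. The Treg cells held little of any: Col18a1 averaged 10.6 CPM in WT and 6.55 in KO, Col1a1 1.37 and 8.44, and each of the other 12 genes described above at most 5.73 CPM. For Col1a1 the KO libraries stood at 5.99, 17.25 and 2.09 CPM. That gene did not pass the low-count filter in the Treg cells, so its KO difference was not tested in the main fit.

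Replicates agreed to different degrees from gene to gene. Over the 13 groups that are not Treg cells, the SD was in the median 4.23% of the mean for Col4a1, 7.88% for Col3a1, 8.97% for Col1a1, 14.0% for Col6a2 and 20.3% for Col4a2. Col4a2 and Col6a2 were each low together with Col16a1 in the same single libraries. VmSC5 with Treg replicate 3 held 0.59 times the mean of its fellow replicates for Col4a2, 0.486 times for Col6a2 and 0.231 times for Col16a1. The ratios were 0.669, 0.507 and 0.34 in VmSC4-derived VmSC5 replicate 3, and 0.384, 0.665 and 0.322 in VmSC5-derived VmSC5 replicate 1. Fresh VmSC4 replicate 2 was low in these 3 genes (0.732, 0.619 and 0.465 times) and in Col1a1 and Col3a1. What sets these libraries apart was not tested.

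**Figure D2:**
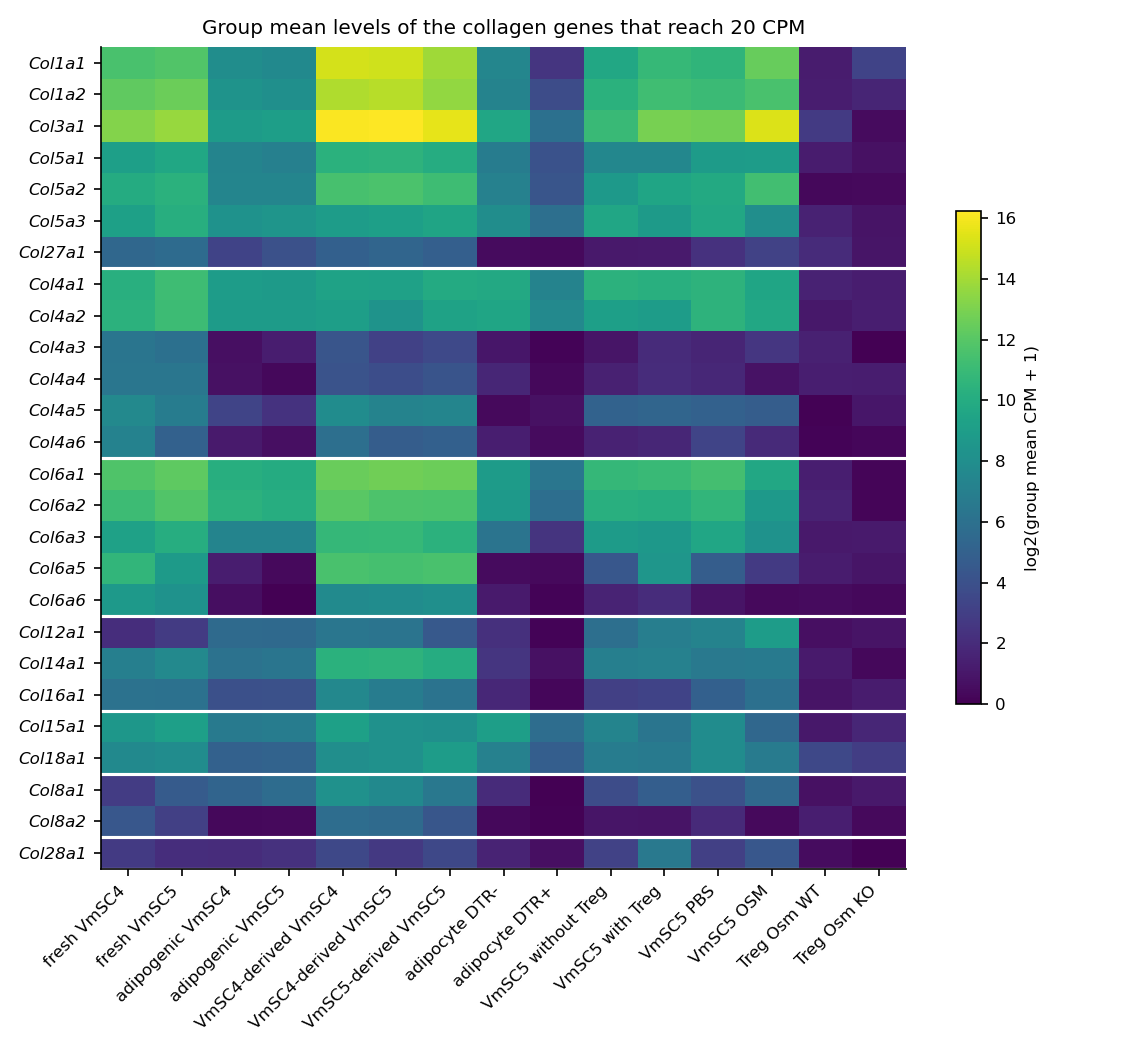
Mean levels, as log2(mean CPM + 1), of the 26 collagen genes that reached 20 CPM in a group (rows, by type) in the 15 groups (columns). Col1a1, Col1a2 and Col3a1 are highest in the transferred groups, Col4a3, Col4a4, Col4a6, Col6a5 and Col6a6 are dark in the adipogenic groups and brighter in the fresh ones, and the Treg columns are dark, least so for Col18a1 and, in KO, Col1a1.

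OSM changed the make-up of the collagen transcripts in VmSC5: types I and III, Col5a2 and Col12a1 rose, and type IV, type VI and both multiplexins fell. Of the 21 members tested, 8 rose and 9 fell, where 45.8% of all 9825 genes were called (22.8% higher, 23% lower). By type, 4 of 6 fibrillar members rose and 1 fell, 2 of 3 type IV members and 4 of 4 type VI members fell, and 2 of 3 fibril-associated members rose. The median log2 fold change was 1.07 for the fibrillar, -0.66 for the type IV and -1.69 for the type VI members, against 0.0 for all genes. Fibrillar genes held 59.6% ± 1.16 of collagen counts with PBS and 93.0% ± 0.795 with OSM, and Col3a1 alone 31.9% ± 0.41 and 72.8% ± 1.3.

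Col3a1 stood at 6713, 6707 and 7120 CPM in the PBS libraries and at 45934, 45411 and 37298 CPM in the OSM libraries, a 6.72-fold rise with a log2 fold change of 2.75 ± 0.09 (SE; adjusted p = 8.72e-31). Adjusted p-values here and below are from edgeR's quasi-likelihood test with Benjamini-Hochberg adjustment over all genes tested. Col1a1 rose from 1555, 1514 and 1576 CPM to 6378, 5338 and 4852 CPM, by 1.94 ± 0.08 (SE; adjusted p = 1.07e-23) on the log2 scale. Its partner Col1a2 rose less, from 2264, 2164 and 2073 CPM to 3414, 2973 and 2750 CPM, by 0.59 ± 0.08 (SE; adjusted p = 1.42e-08). The libraries of the 2 treatments did not overlap for any of these 3 genes, and per length the ratio of Col1a1 to Col1a2 went from 0.645 (0.619 to 0.686) to 1.63 (1.59 to 1.68). The type V chains separated from each other. Col5a2 rose from 913, 935 and 907 CPM to 2726, 2420 and 2389 CPM (1.55 ± 0.08 SE, adjusted p = 1.66e-22), and Col5a3 fell from 832, 792 and 877 CPM to 234, 291 and 250.3 CPM (-1.59 ± 0.09 SE, adjusted p = 6.35e-21). Col5a1, at 464, 462 and 487 CPM with PBS and 553, 481 and 447 CPM with OSM, had overlapping libraries and a log2 fold change of 0.17 ± 0.09 (SE; adjusted p = 0.101). Col12a1, a fibril-associated chain found in tissue under load, rose from 134, 158 and 169.7 CPM to 519, 528 and 444 CPM (1.79 ± 0.1 SE, adjusted p = 2.97e-21). Col16a1, Col8a1 and Col28a1 completed the members that rose, with log2 fold changes of 1.09, 1.57 and 1.5.

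Every type VI member tested fell with OSM. Col6a1 went from 2471, 2554 and 2766 CPM to 711, 922 and 869 CPM (-1.54 ± 0.08 SE, adjusted p = 9.76e-21), a level 2.9-fold lower. Col6a2 went from 1508, 1646 and 1669 CPM to 412, 408 and 437 CPM (-1.84 ± 0.08 SE, adjusted p = 1.07e-24), and Col6a3 fell by less, with a log2 fold change of -1.21 ± 0.09 (SE; adjusted p = 4.85e-17). Col6a5 was already low, at 21.6, 26.5 and 29.8 CPM with PBS, and stood at 2.41, 10.3 and 4.6 CPM with OSM (-2.12 ± 0.36 SE, adjusted p = 2.31e-06). Each OSM library lay below each PBS library for all 4 chains. In the basement membrane group Col4a1 fell from 1326, 1474 and 1403 CPM to 721, 782 and 712 CPM (-0.82 ± 0.08 SE, adjusted p = 9.87e-13) and Col4a2 from 1300, 1470 and 1588 CPM to 866, 862 and 848 CPM (-0.66 ± 0.08 SE, adjusted p = 1.22e-09). The multiplexin Col15a1 had the largest fall of the members above 20 CPM, 5.22-fold, from 239, 230.0 and 231 CPM to 36.9, 37.3 and 48.6 CPM, and Col18a1 fell with a log2 fold change of -1.0 ± 0.12 (SE; adjusted p = 3.51e-10). Beside these changes the summed CPM of 8 adipocyte marker genes was 12284 to 14084 with PBS and 1006 to 1465 with OSM, that of 8 fibroblast markers 13772 to 14902 and 7919 to 8218, and that of 8 pericyte and smooth muscle markers 220.0 to 294 and 982 to 1277. The summed CPM of 9 endothelial markers was 80.35 to 88.67 with PBS and 264 to 299.6 with OSM. No pericyte or endothelial marker was at 0 counts in either group, and the part of these shifts in the collagen changes was not tested.

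Genes that make and finish collagen moved in the same experiment, where 22.8% of all genes tested were called higher and 23% lower. Of the 18 tested genes for hydroxylation, folding and export, 16 rose and 0 fell (median log2 fold change 1.06, against 0.0 for all genes), led by P4ha2, P4hb and P4ha1, subunits of prolyl 4-hydroxylase: P4ha2 (2.48, adjusted p = 2.8e-28), P4hb (1.36, adjusted p = 8.64e-21) and P4ha1 (1.35, adjusted p = 1.49e-18). Among 10 processing and cross-linking genes 8 rose and 2 fell. Bmp1, the procollagen C-proteinase, rose by 2.76 on the log2 scale (adjusted p = 1.38e-30), and the lysyl oxidase relatives Loxl3 (2.49, adjusted p = 2.54e-25) and Loxl1 (1.63, adjusted p = 5.67e-23) rose with it. The enhancers of that proteinase, Pcolce (-0.57, adjusted p = 8.82e-08) and Pcolce2 (-0.65, adjusted p = 0.000657), fell. Of 6 receptor genes 4 rose, led by Itga11 (2.27, adjusted p = 4.51e-14), Ddr2 (0.83, adjusted p = 7.48e-12) and Ddr1 (1.05, adjusted p = 1.6e-07), and 1 fell, Mrc2 (-0.52, adjusted p = 0.0122), a receptor that takes up collagen. All 17 collagen calls held when any 1 library was left out.

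With Treg, types I and III rose in VmSC5, and so did Col6a5 and Col28a1, while Col15a1 and Col5a3 fell. Of the 28 members tested, 12 rose and 6 fell, where 43.4% of all 12356 genes were called (22.4% higher, 21% lower). By type, 4 of 7 fibrillar members rose and 2 fell, with a median log2 fold change of 0.83, against 0.0 for all genes. Of the 6 type IV members 2 rose and 1 fell, and of 5 type VI members 2 rose and 1 fell. Collagens went from 1.15% ± 0.0884 to 1.96% ± 0.148 of all counts, and Col3a1 from 17.7% ± 0.512 to 39.4% ± 0.306 of collagen counts.

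Col6a5 had the smallest adjusted p of all members. It stood at 21.5, 21.5 and 18.3 CPM without Treg and at 389, 352 and 335 CPM with Treg, 17.6-fold higher (4.13 ± 0.08 SE, adjusted p = 4.67e-31). Col28a1, a short von Willebrand domain collagen known from peripheral nerve, went from 10.8, 8.28 and 6.02 CPM to 102, 92.4 and 83.1 CPM (3.45 ± 0.13 SE, adjusted p = 6.14e-19). The libraries did not overlap for either gene, and the 4 markers of Schwann cells summed to 0.613 to 1.91 CPM without and 0.556 to 1.53 CPM with Treg. Col3a1 rose from 1970, 1877 and 2284 CPM to 8264, 7811 and 7061 CPM (1.93 ± 0.07 SE, adjusted p = 2.26e-14). For type I, Col1a1 rose from 829.9, 700.4 and 955 CPM to 2008, 1766 and 1719 CPM (1.16 ± 0.12 SE, adjusted p = 0.000409) and Col1a2 from 1263, 1182 and 1437 CPM to 2612, 2389 and 2316 CPM (0.93 ± 0.06 SE, adjusted p = 8.05e-13). Per length, Col1a1 over Col1a2 was 0.575 without and 0.676 with Treg. Col5a2 and Col12a1 rose to 727 and 123 CPM, with log2 fold changes of 0.83 ± 0.06 and 1.07 ± 0.08 (adjusted p = 1.53e-14 and 8.78e-13). Col8a1, a hexagonal network chain, rose by 1.19 ± 0.24 (adjusted p = 0.00255), and the low-level Col9a3 and Col4a3 by 2.05 and 1.74 to 3.21 and 2.97 CPM.

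The clearest falls were those of Col15a1, from 153, 156 and 164 CPM to 75.6, 80.3 and 76.2 CPM (-1.01 ± 0.07 SE, adjusted p = 6.53e-15), and Col5a3, from 789.8, 729 and 813 CPM to 495, 491 and 412 CPM (-0.73 ± 0.06 SE, adjusted p = 7.64e-11). Of the large type VI and IV chains, Col6a1 rose by 0.2 ± 0.05 (SE; adjusted p = 0.00209), and Col6a3 and Col4a1 fell, with log2 fold changes of -0.22 ± 0.06 (SE; adjusted p = 0.00317) and -0.2 ± 0.05 (SE; adjusted p = 0.00295). These changes amounted to 1.15-fold, 1.17-fold and 1.15-fold. Col6a2 and Col4a2, whose replicate 3 with Treg stood apart as given above, had log2 fold changes of -0.13 ± 0.33 (SE; adjusted p = 0.794) and -0.16 ± 0.25 (SE; adjusted p = 0.67), and without that library 0.14 (adjusted p = 0.0407) and 0.06 (adjusted p = 0.49). Calls of Col18a1, Col4a5 and Col11a2 (-0.18 for Col18a1, adjusted p = 0.0477, 0.26 for Col4a5, adjusted p = 0.0477, and -1.44 for Col11a2, adjusted p = 0.0183) were lost when 3 to 5 of the libraries were left out in turn, with adjusted p from 0.054 to 0.213. Adipocyte markers summed to 22838 to 24596 CPM without and 14428 to 16282 CPM with Treg, fibroblast markers to 19556 to 20443 and 17016 to 18743 CPM, and T cell and Treg markers to 3.65 to 4.09 and 3.06 to 4.29 CPM, against 4198 to 4521 CPM in the WT Treg cells themselves.

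Most collagen synthesis genes rose: 14 of 17 rose and 0 fell, with a median log2 fold change of 1.02. Over all genes tested with and without Treg, 22.4% were called higher and 21% lower, which applies to the 3 lists here. They were led by P4ha1 (1.8, adjusted p = 3.44e-23), Creb3l1 (2.97, adjusted p = 1.11e-20) and Plod1 (1.12, adjusted p = 1.79e-17), which encode a prolyl 4-hydroxylase subunit, a transcription factor of secretory cells and a lysyl hydroxylase. Of 11 processing genes 9 rose, led by Loxl3 (2.76, adjusted p = 4.01e-25), Pcolce2 (1.38, adjusted p = 2.1e-17) and Loxl2 (1.41, adjusted p = 3.43e-13), and 1 fell, Adamts3 (-1.04, adjusted p = 0.00631), a procollagen N-proteinase. Of 7 receptor genes 6 rose and none fell, led by Ddr1 (0.76, adjusted p = 4.47e-09), Ddr2 (0.38, adjusted p = 8.23e-06) and Itga11 (0.7, adjusted p = 1.45e-05).

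**Figure D3:**
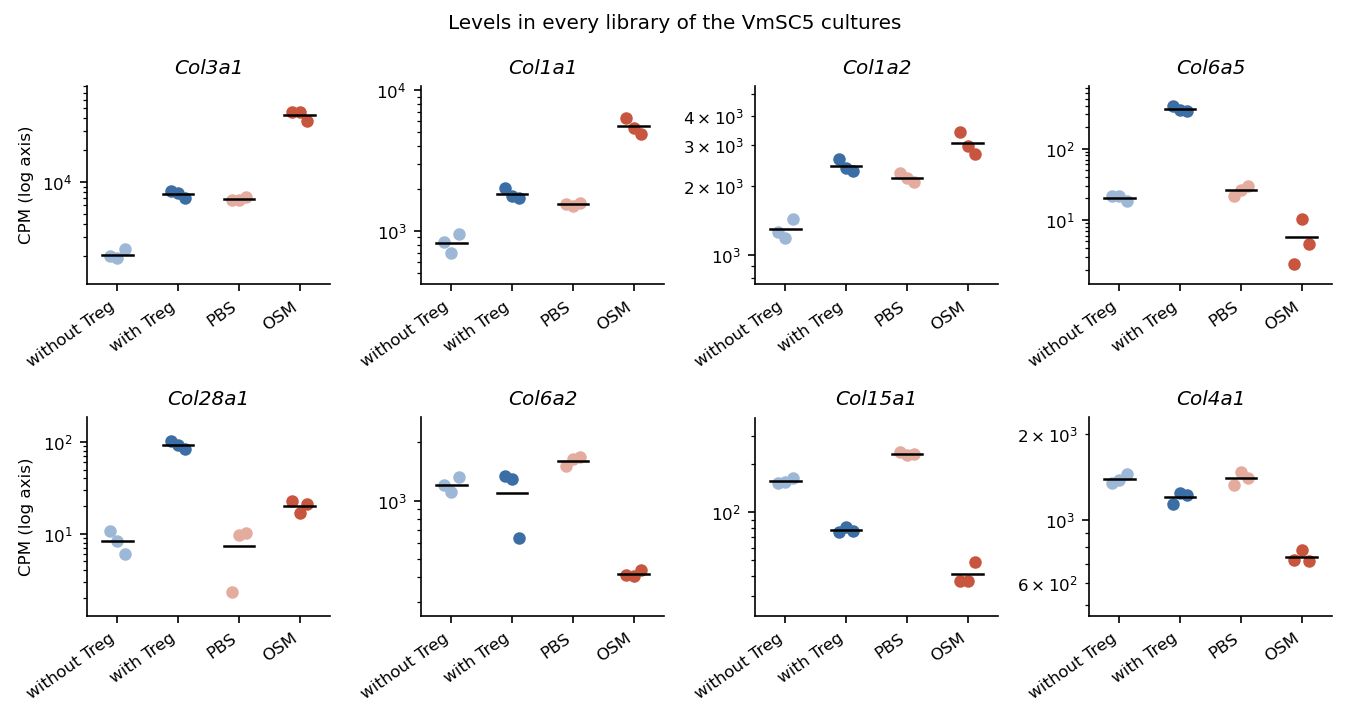
CPM of 8 collagen genes, 1 panel each, in every library of the cultures without and with Treg and with PBS and OSM, on log axes. Points are libraries and lines are group means; Col3a1 is higher in each OSM library than in each PBS library, and Col6a5 is higher with Treg and lower with OSM.

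The response to OSM minus the response to Treg was tested as a contrast of the 4 groups, each response relative to its own control. Of 26 members tested, 5 were higher and 11 lower in the OSM response, where 32.5% of all 12112 genes were called (15% higher, 17.5% lower). Among 7 fibrillar members 3 were higher and 2 lower, and all 4 type VI members and both multiplexins tested were lower. Col6a5 differed most, by -6.23 ± 0.29 (SE; adjusted p = 1.73e-21), since it rose with Treg and fell with OSM. The type VI chains Col6a1 and Col6a3 differed by -1.7 ± 0.1 (SE; adjusted p = 2.3e-18) and -0.95 ± 0.11 (SE; adjusted p = 5.35e-10), and Col6a2 by -1.66 ± 0.35 (SE; adjusted p = 0.00616). Col15a1 and Col5a3 fell in both experiments and by more with OSM (-1.33 for Col15a1, adjusted p = 2.53e-10, and -0.82 for Col5a3, adjusted p = 4.23e-08). Col3a1, Col5a2, Col1a1 and Col12a1 rose in both and by more with OSM (0.86 for Col3a1, adjusted p = 2.66e-08, 0.77 for Col5a2, adjusted p = 6.24e-09, 0.82 for Col1a1, adjusted p = 0.00072, and 0.76 for Col12a1, adjusted p = 1.36e-05). Col28a1 rose in both and by less with OSM (-1.91, adjusted p = 0.000209), as did Col1a2 (-0.29, adjusted p = 0.0249). Col4a1 and Col18a1 were lower in the OSM response (-0.58 for Col4a1, adjusted p = 1.99e-06, and -0.78 for Col18a1, adjusted p = 1.04e-05), and Col23a1, a transmembrane chain under 10 CPM in each of the 4 groups, was higher. The calls of Col1a2 and Col4a6 were each lost when 5 or 6 single libraries were left out in turn (adjusted p from 0.0513 to 0.104). The 2 experiments also differed in depth and in their controls, where Adipoq stood at 3574, 3595 and 3298 CPM without Treg and 327, 243 and 244 CPM with PBS, and the part of that in the difference was not tested.

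**Figure D4:**
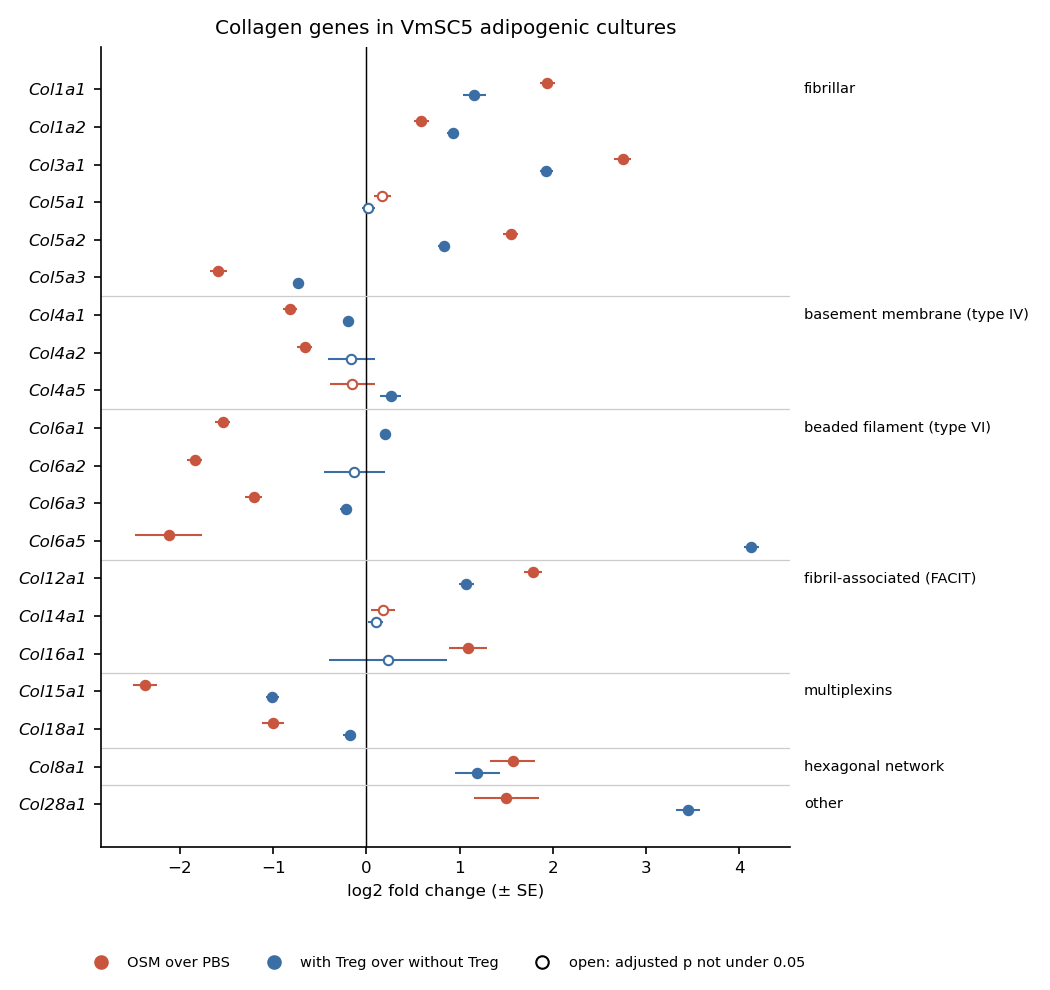
Log2 fold change of each collagen gene that reached 20 CPM in a culture group, with Treg against without and with OSM against PBS, with its SE. Filled markers were called at adjusted p under 0.05 and open markers were not; the fibrillar genes Col3a1, Col1a1 and Col5a2 lie above 0 in both, and Col6a5 lies above 0 with Treg and below it with OSM.

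The sequences before the start sites of 4 members are shown because these genes carry the culture results: Col3a1 for OSM, Col1a2 as the type I chain that rose less than its partner with OSM, and Col6a5 and Col28a1 for the Treg cultures. They were chosen after their values were seen. Each is the 250 bases before the start in RefSeq on GRCm38.p6, 5′ to 3′ on the gene's own strand, with capitals marking a match to TATAAA (Col3a1), CCAAT (Col1a2) or TTCNNNGAA (Col6a5, Col28a1).
Col3a1: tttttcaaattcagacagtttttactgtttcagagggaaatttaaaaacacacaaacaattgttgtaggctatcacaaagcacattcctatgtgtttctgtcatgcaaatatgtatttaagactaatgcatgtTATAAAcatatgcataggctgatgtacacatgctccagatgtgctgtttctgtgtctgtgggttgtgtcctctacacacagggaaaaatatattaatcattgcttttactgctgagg
Col1a2: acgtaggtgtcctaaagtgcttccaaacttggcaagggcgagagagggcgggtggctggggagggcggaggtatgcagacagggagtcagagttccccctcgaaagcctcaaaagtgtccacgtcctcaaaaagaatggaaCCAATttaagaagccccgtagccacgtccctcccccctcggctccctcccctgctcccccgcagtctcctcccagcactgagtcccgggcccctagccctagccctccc
Col6a5: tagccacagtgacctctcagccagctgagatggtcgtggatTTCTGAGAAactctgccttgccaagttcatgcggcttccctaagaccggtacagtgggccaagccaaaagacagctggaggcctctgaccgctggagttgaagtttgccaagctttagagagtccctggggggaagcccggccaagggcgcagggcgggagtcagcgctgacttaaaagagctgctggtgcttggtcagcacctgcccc
Col28a1: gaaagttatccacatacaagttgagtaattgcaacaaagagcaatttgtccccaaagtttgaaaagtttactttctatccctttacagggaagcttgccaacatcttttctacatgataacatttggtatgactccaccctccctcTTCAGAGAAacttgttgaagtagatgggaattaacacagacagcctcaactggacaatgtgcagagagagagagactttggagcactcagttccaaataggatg

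The windows lie at chr1:45311288-45311537 (plus strand) for Col3a1, chr6:4505368-4505617 (plus) for Col1a2, chr9:105960644-105960893 (minus) for Col6a5 and chr6:8192618-8192867 (minus) for Col28a1. Letters were searched on both strands in 38 windows of the 35 members that the RefSeq table holds and in all 32851 windows of the same length. Col1a1, Col2a1, Col4a3, Col5a2, Col9a3, Col12a1, Col14a1, Col22a1 and Col26a1 had no window and were not searched. They include Col1a1, Col5a2 and Col12a1, which rose with OSM. CCAAT, the letters bound by NF-Y, was in 13 of 38 member windows and 33.8% of all windows, and TATAAA in 5 of 38 and 12.4%. GGGCGG, letters bound by Sp1, was in 22 of 38 and 32.7%. TTCNNNGAA, the spaced palindrome bound by STAT factors, which act downstream of OSM receptors, was in 2 of 38 and 7.02%, and these 2 are Col6a5 and Col28a1. That motif was noticed after the values of both genes were known, and Col6a5 fell with OSM while Col28a1 rose. None of the 4 strings contains another, and a match describes letters, not binding.

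Fresh VmSC5 were higher than fresh VmSC4 in 5 fibrillar chains and in Col4a1, Col6a1 and Col6a3, and fresh VmSC4 were higher in Col4a5, Col4a6, Col6a5, Col6a6 and Col8a2. Of 34 members tested, 12 were higher in VmSC5 and 5 lower, where 18.4% of all 13947 genes were called (7.41% higher, 11% lower). Of the 8 fibrillar members tested 5 were higher and none lower, with a median log2 fold change of 0.43 against -0.02 for all genes. Col4a1 stood at 1176, 1041 and 1368 CPM in VmSC4 and 2201, 2632 and 2166 CPM in VmSC5 (1.05 ± 0.11 SE, adjusted p = 5.39e-07). Col5a3 stood at 539, 514 and 699 CPM and 1053, 1266 and 1172 CPM (1.08 ± 0.13 SE, adjusted p = 2.24e-06). The 6 type VI members split into 2 higher, 2 lower and 2 not called, and the libraries of the 2 populations overlapped in the summed percent of fibrillar and of type VI counts. Of type VI, Col6a3 stood at 575, 613 and 709.8 CPM in VmSC4 and 948, 1011 and 1282 CPM in VmSC5 (0.86 ± 0.12 SE, adjusted p = 1.95e-05), and Col6a1 was higher by 0.59 ± 0.14 (SE; adjusted p = 0.00311). The alternative chain Col6a5 went the opposite way, at 1944, 1691 and 1340 CPM in VmSC4 and 331, 324 and 722 CPM in VmSC5 (-1.75 ± 0.28 SE, adjusted p = 0.00169). Within type IV the chains also parted: Col4a6 stood at 201, 122 and 108 CPM in VmSC4 and 31.5, 34.9 and 29.9 CPM in VmSC5 (-2.07 ± 0.23 SE, adjusted p = 1.22e-05), and Col4a5, its neighbour on the X chromosome, had a log2 fold change of -0.76 ± 0.14 (SE; adjusted p = 0.000607). Col8a2, a hexagonal network chain, was lower in VmSC5 (-1.33 ± 0.28 SE, adjusted p = 0.00265) and its partner Col8a1 higher (1.98 ± 0.46 SE, adjusted p = 0.0145). Col5a1, Col14a1 and Col5a2 were also higher (0.59 for Col5a1, adjusted p = 0.00229, 0.69 for Col14a1, adjusted p = 0.00561, and 0.45 for Col5a2, adjusted p = 0.0112). Col1a1 was not called, at 3442, 1556 and 3943 CPM in VmSC4 and 3307, 3710 and 3956 CPM in VmSC5 (0.38 ± 0.25 SE, adjusted p = 0.325).

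Of 12 processing genes tested 8 were higher in VmSC5 and 0 lower, led by Pcolce2 (1.25, adjusted p = 7.58e-08), Tll2 (2.02, adjusted p = 0.000335) and Pcolce (0.68, adjusted p = 0.000566), and of 7 receptor genes 3 were higher, Itga11 (1.59, adjusted p = 1.12e-08), Mrc2 (1.13, adjusted p = 0.00284) and Itga1 (1.0, adjusted p = 0.0177). Of 20 synthesis genes 5 were higher, led by P4ha2 (0.85, adjusted p = 1.83e-05), Plod1 (0.6, adjusted p = 0.000187) and Serpinh1 (0.6, adjusted p = 0.0035), and 1 lower, Fkbp14 (-0.44, adjusted p = 0.00661). Beside these lists, 7.41% of all genes tested were called higher in fresh VmSC5 and 11% lower. The fibroblast marker sum was 132515 to 138224 CPM in VmSC4 and 154550 to 160539 CPM in VmSC5, and the endothelial sum 60.7 to 82.4 and 99.0 to 131 CPM, and their part in these differences was not tested. Of the 17 calls 10 held when any 1 library was left out, and 7 were lost in some of these 14 fits (adjusted p from 0.0524 to 0.157). The call of Col3a1 was lost in 12 of them and without the low-count filter (adjusted p = 0.298), and that of Col6a6 in 10 and with RLE scaling, DESeq2 or no filter (adjusted p = 0.063, 0.0578 and 0.0828). Col1a2 was lost in 4, Col12a1 and Col15a1 in 3 each, and Col5a2 and Col8a1 in 1 each. The count was 11 without fresh VmSC4 replicate 1.

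Transferred cells were higher than fresh cells in type I, type III, Col12a1, Col14a1 and both type VIII chains, and lower in most type IV chains. In VmSC4-derived VmSC4 against fresh VmSC4, 17 of 34 members were higher and 8 lower, where 46.1% of all 13947 genes were called (21.4% higher, 24.7% lower). In VmSC5-derived VmSC5 against fresh VmSC5 the counts were 14 and 9, where 46.4% of all genes were called (23.9% higher, 22.4% lower). The median log2 fold change of the 8 fibrillar members was 1.78 and 0.87, and that of the 6 type IV members -1.24 and -1.59, against -0.02 and 0.01 for all genes. Col1a1 stood at 33850, 37535 and 37096 CPM in VmSC4-derived VmSC4, 12.3-fold above fresh VmSC4 (3.62 ± 0.27 SE, adjusted p = 3.56e-07). In VmSC5-derived VmSC5 it stood at 15278 and 15998 CPM, with a log2 fold change of 2.04 ± 0.27 (SE; adjusted p = 6.13e-05). Every transferred library lay above every fresh library for this gene. Col3a1 stood at 71628, 69955 and 71678 CPM and 49919 and 50064 CPM in the same 2 groups (2.91 ± 0.2 SE, adjusted p = 2.91e-09 and 1.85 ± 0.21 SE, adjusted p = 1.27e-06), and Col1a2 rose by 2.02 ± 0.12 and 0.96 ± 0.13 (adjusted p = 1.9e-12 and 2.06e-06). The fibril-associated Col14a1 rose by 3.35 ± 0.18 and 2.4 ± 0.18, and Col12a1, from 3.29 and 6.06 CPM when fresh, by 4.66 ± 0.25 and 1.85 ± 0.27. The hexagonal network chains rose as well, Col8a1 by 5.56 ± 0.48 and 1.82 ± 0.45 (adjusted p = 7.67e-06 and 0.00743) and Col8a2 by 1.47 ± 0.27 and 1.31 ± 0.33 (adjusted p = 0.000167 and 0.00282). Col5a2 rose by 1.54 ± 0.13 and 0.78 ± 0.14 (adjusted p = 4.7e-10 and 5.17e-05). Col5a1 and Col6a3 rose in the VmSC4 comparison (1.23 for Col5a1, adjusted p = 4.25e-08, and 1.5 for Col6a3, adjusted p = 5.11e-10) and were not called in that of VmSC5 (0.33 for Col5a1, adjusted p = 0.0669, and 0.27 for Col6a3, adjusted p = 0.105). The difference between these 2 responses was not tested.

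Falls were called for 5 of the 6 type IV members in the VmSC4 comparison, with 0 called higher, and for 4 in that of VmSC5, with 1 called higher. The exception was Col4a5, at 118, 123 and 89.1 CPM in fresh VmSC5 and 145 and 185 CPM after transfer (0.53 ± 0.16 SE, adjusted p = 0.00885), which was not called in VmSC4 (0.28 ± 0.14 SE, adjusted p = 0.114). Col4a1 fell in both, with log2 fold changes of -0.89 ± 0.11 in VmSC4 and -1.31 ± 0.13 in VmSC5 (adjusted p = 8.11e-07 and 2.03e-08). Col4a3 and Col4a4, a divergent pair 71 bases apart on chromosome 1, fell in VmSC4 (-2.07 for Col4a3, adjusted p = 1.5e-08, and -2.31 for Col4a4, adjusted p = 4.44e-10) and in VmSC5 (-2.57 for Col4a3, adjusted p = 1e-08, and -2.26 for Col4a4, adjusted p = 5.36e-09). Col6a5 rose in VmSC5 from 331, 324 and 722 CPM when fresh to 2957 and 2960 CPM (2.62 ± 0.31 SE, adjusted p = 3.99e-05) and in VmSC4 with a smaller log2 fold change (0.91 ± 0.28 SE, adjusted p = 0.0191), and the means after transfer were 2958 and 3071 CPM. Col6a6 fell in VmSC4 (-0.94 ± 0.12 SE, adjusted p = 6.94e-07) and was not called in VmSC5 (-0.3 ± 0.13 SE, adjusted p = 0.0667). Col15a1 fell in VmSC5 (-1.14 ± 0.22 SE, adjusted p = 0.000371) and was called higher in VmSC4 (0.64 ± 0.19 SE, adjusted p = 0.00974), where 1 transferred library lay within the fresh range. Col18a1 rose in VmSC5 (0.99 ± 0.16 SE, adjusted p = 3.82e-05). The cross-linking enzyme Lox rose beside the fibrillar genes (2.08, adjusted p = 1.23e-06 in VmSC4 and 1.63, adjusted p = 3.08e-05 in VmSC5), with 7 of 12 and 2 of 12 processing genes higher and 1 and 2 lower. Of 20 synthesis genes, 7 rose and 2 fell in VmSC4, and 4 rose and 10 fell in VmSC5. The background rates over every gene tested were 21.4% rising and 24.7% falling for VmSC4. For VmSC5 they were 23.9% rising and 22.4% falling. Rises in both lists were thus more frequent than the background in VmSC4 and near it in VmSC5. The lists were not compared between the populations. The fibroblast marker sum was 38404 to 41156 CPM in VmSC4-derived VmSC4 and 69160 to 69488 CPM in VmSC5-derived VmSC5, below both fresh groups, and depth was lower than in the fresh libraries, and the part of either was not tested. Calls lost when single libraries were left out were Col13a1, Col15a1, Col16a1, Col17a1, Col4a2, Col6a2 and Col6a5 of the 25 in VmSC4 (adjusted p from 0.0506 to 0.1) and Col13a1, Col20a1, Col27a1, Col4a5, Col6a4 and Col8a2 of the 23 in VmSC5 (0.0512 to 0.281).

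VmSC4-derived cells that were sorted as VmSC5 differed from VmSC4-derived VmSC4 in few collagen genes. Against them 4 of 34 members were lower and 0 higher, where 1.77% of all 13947 genes were called (0.746% higher, 1.03% lower). The 4 were type IV chains and a multiplexin: Col4a3, at 17.9, 17.8 and 18.6 CPM in VmSC4-derived VmSC4 and 10.3, 8.26 and 4.44 CPM in VmSC4-derived VmSC5 (-1.19 ± 0.25 SE, adjusted p = 0.0135), Col4a6 (-1.09 ± 0.25 SE, adjusted p = 0.0375), Col4a5 (-0.56 ± 0.15 SE, adjusted p = 0.0461) and Col15a1, at 443, 787 and 557 CPM and 306, 275 and 309 CPM (-0.91 ± 0.19 SE, adjusted p = 0.0214). Libraries of the 2 groups did not overlap for these 4 genes, which were picked by their calls. How many of all genes had no overlap was not counted, so this adds no support to the calls. None of the calls held in every fit with 1 library left out (adjusted p up to 0.204): the count was 0 without VmSC4-derived VmSC4 replicate 2 or 3 or VmSC4-derived VmSC5 replicate 3, 1 without VmSC4-derived VmSC5 replicate 1 or 2, and 2 without fresh VmSC5 replicate 1. Col3a1, Col1a1 and Col1a2 had log2 fold changes of 0.18 ± 0.19, -0.01 ± 0.25 and 0.29 ± 0.12 (adjusted p = 0.671, 0.996 and 0.218).

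Against VmSC5-derived VmSC5, the same VmSC4-derived VmSC5 libraries had 5 members higher and 2 lower, where 1.15% of all genes were called (0.523% higher, 0.624% lower). Both comparisons share these 3 libraries. Col1a2 stood at 22888, 22750 and 23587 CPM in VmSC4-derived VmSC5 and at 12511 and 11753 CPM in VmSC5-derived VmSC5 (1.0 ± 0.14 SE, adjusted p = 0.00014), and Col12a1 at 95.1, 72.7 and 56.1 CPM and 25.3 and 19.8 CPM (1.79 ± 0.25 SE, adjusted p = 0.000248). These 2 calls held when any 1 library was left out. Col1a1, at 34839, 32491 and 34619 CPM and 15278 and 15998 CPM, had non-overlapping libraries and was not called (1.19 ± 0.29 SE, adjusted p = 0.0786). It was called, with the same log2 fold change, by DESeq2 (adjusted p = 0.00335) and without fresh VmSC4 replicate 2 (2.55e-07) or 3 (0.0346). Col3a1 (0.68 ± 0.21 SE, adjusted p = 0.169) and Col5a2 (0.52 ± 0.14 SE, adjusted p = 0.0692) were also called in these 3 fits (adjusted p from 0.000715 to 0.0473), and Col5a2 in 2 others. The other 5 called members were Col4a1 (-0.62, adjusted p = 0.0115), Col24a1 (2.61, adjusted p = 0.0266), Col8a2 (1.37, adjusted p = 0.038), Col6a3 (0.56, adjusted p = 0.0428) and Col18a1 (-0.68, adjusted p = 0.0435), each lost in at least 1 fit with a library left out (adjusted p from 0.0503 to 0.476). The count was 2 without VmSC4-derived VmSC5 replicate 1 or VmSC5-derived VmSC5 replicate 2, 3 without VmSC4-derived VmSC5 replicate 2, 4 without VmSC4-derived VmSC5 replicate 3, VmSC5-derived VmSC5 replicate 1 or VmSC4-derived VmSC4 replicate 1, and 11 without fresh VmSC4 replicate 2.

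**Figure D5:**
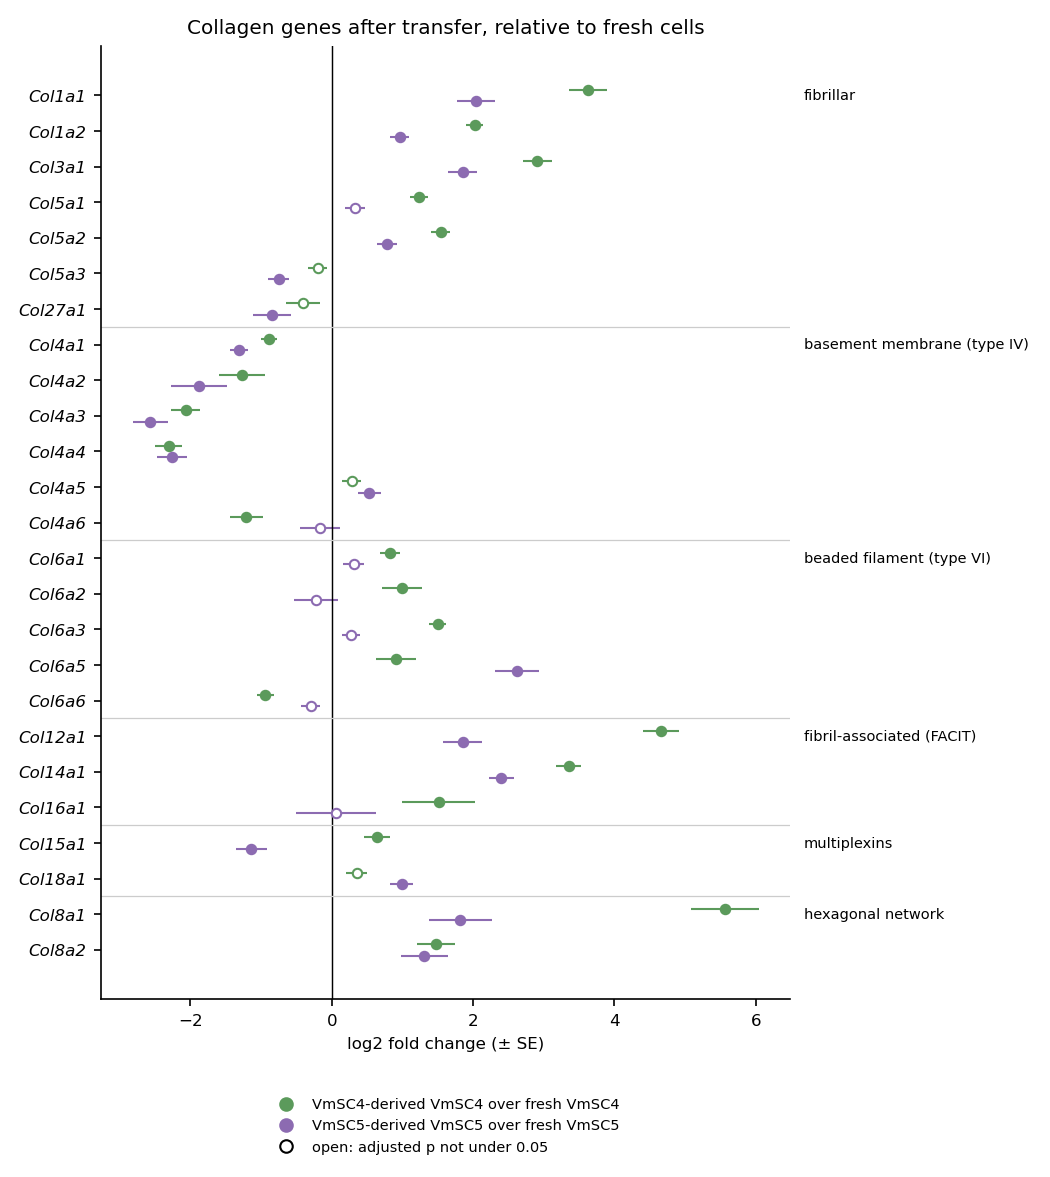
Log2 fold change, with its SE, of each collagen gene that reached 20 CPM in a compared group, for VmSC4-derived VmSC4 against fresh VmSC4 and VmSC5-derived VmSC5 against fresh VmSC5. Filled markers were called at adjusted p under 0.05 and open markers were not; Col1a1, Col3a1, Col12a1 and Col14a1 lie above 0 in both and Col4a1, Col4a3 and Col4a4 below.

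After 8 days of adipogenic differentiation most collagen genes were lower than in fresh cells, in both populations. In VmSC4 2 of 33 members rose and 26 fell, where 70.4% of all 13221 genes were called (31.9% higher, 38.5% lower), and in VmSC5 3 rose and 27 fell, where 71% were called (33.4% higher, 37.6% lower). The median log2 fold change of the members tested was -2.12 and -2.39, against -0.23 and -0.18 for all genes. Fresh sorted cells and lysed culture wells differ in preparation and depth as well as in differentiation, and these cannot be told apart.

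The fibrillar genes fell together. Col1a2 fell from 5061, 4325 and 5623 CPM to 311, 355 and 305 CPM in VmSC4 (-3.41 ± 0.14 SE, adjusted p = 2.32e-17) and from 5476, 5679 and 6802 CPM to 226, 283 and 302 CPM in VmSC5 (-4.05 ± 0.15 SE, adjusted p = 1.09e-18). Col3a1 fell to 501, 526 and 427 CPM in VmSC4 (-3.77 ± 0.24 SE, adjusted p = 1.27e-08) and to 531, 540.2 and 555 CPM in VmSC5 (-4.19 ± 0.25 SE, adjusted p = 4.62e-09), and Col1a1 had log2 fold changes of -3.06 ± 0.33 and -3.74 ± 0.34. No adipogenic library reached the lowest fresh library for these genes. The chains of specialised networks went nearly to 0. Col6a5 had 10 counts over the 3 adipogenic VmSC4 libraries, 1098-fold below fresh VmSC4 (95% counting interval 597 to 2289), and 2 counts in VmSC5, 1465-fold below (405 to 12097). Col6a6 had 3 counts in adipogenic VmSC4, 933-fold below fresh VmSC4 (319 to 4523), and 0 in adipogenic VmSC5, at least 679-fold lower than fresh VmSC5 against a floor of 3 counts over the group. Intervals and floors cover counting error only, and these ratios use library totals without the TMM scaling of the log2 fold changes. Col4a3, Col4a4, Col4a5 and Col4a6 fell in VmSC4 (-6.43 for Col4a3, -6.51 for Col4a4, -3.89 for Col4a5 and -6.33 for Col4a6) and in VmSC5 (-5.07 for Col4a3, -7.58 for Col4a4, -4.25 for Col4a5 and -5.25 for Col4a6). Col4a1 and Col4a2 had smaller log2 fold changes, -0.72 ± 0.12 and -0.94 ± 0.14 in VmSC4 and -1.94 ± 0.12 and -1.8 ± 0.14 in VmSC5.

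Col12a1 and Col8a1 rose against this trend. Col12a1 went from 2.24, 4.02 and 3.6 CPM to 54.8, 44.9 and 43.3 CPM in VmSC4 (4.4 ± 0.26 SE, adjusted p = 2.63e-14) and from 3.81, 7.33 and 7.04 CPM to 43.4, 48.2 and 46.5 CPM in VmSC5 (3.35 ± 0.24 SE, adjusted p = 2.93e-12). Col8a1 rose by 3.05 ± 0.45 and 1.53 ± 0.41 (adjusted p = 9.29e-05 and 0.00569). Col7a1, the anchoring fibril chain, was called higher in VmSC5 at 1.75, 3.4 and 6.1 CPM and 6.02, 6.89 and 8.55 CPM, with libraries that overlap. Of 19 synthesis genes 6 rose and 12 fell in VmSC4, and 5 rose and 11 fell in VmSC5. The background rates over every gene tested were 31.9% rising and 38.5% falling for VmSC4. For VmSC5 they were 33.4% rising and 37.6% falling. Rises among synthesis genes were thus no more frequent than the background. P4ha1 was among the synthesis genes that rose (1.13, adjusted p = 5.3e-09 in VmSC4 and 1.25, adjusted p = 6.81e-10 in VmSC5). Fkbp10, a collagen chaperone, was among those that fell (-1.69, adjusted p = 5.14e-11 and -1.94, adjusted p = 3.52e-12). Of 12 processing genes 11 fell in each population, led by Bmp1 (-2.49, adjusted p = 1.19e-13 and -2.52, adjusted p = 5.1e-14), and Lox was called higher (0.73, adjusted p = 0.011 and 0.9, adjusted p = 0.00321). Mean Lox levels were 168.7 ± 50.7 (SD) CPM in fresh and 192.4 ± 18.78 CPM in adipogenic VmSC4. In VmSC5 they were 128.4 ± 34.15 and 178.2 ± 17.67 CPM. These CPM differ by less than the log2 fold changes, which use TMM scaling. Fibroblast markers summed to 3947 to 4457 CPM in adipogenic VmSC4 and 3926 to 4306 CPM in adipogenic VmSC5, and adipocyte markers to 30076 to 32477 and 30259 to 31446 CPM against 182 to 230.5 and 145 to 185 CPM when fresh. Only the calls of Col5a3 in VmSC4 (adjusted p = 0.131) and Col6a4 in VmSC5 (up to 0.0624) were lost with a single library left out.

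Between the 2 adipogenic populations no collagen gene was called by edgeR at n = 3 against 3, where 0.34% of all genes were (0.129% higher, 0.212% lower). An unadjusted p under 0.05 was reached by 5 members, and by DESeq2 0 were called. The contrast of the 2 responses, by comparison, did pass the test for 7 of 33 members, all with the larger fall in VmSC5, where 2.87% of all genes were called (1.85% higher, 1.01% lower). They were Col4a1, Col4a2, Col5a1, Col5a3, Col6a1, Col6a2 and Col6a3. For Col4a1 the fresh means were 1195 ± 164 CPM in VmSC4 and 2333 ± 259 CPM in VmSC5 (SD, n = 3 each), the adipogenic means 498 ± 18.6 and 452 ± 10.2 CPM, and the difference of the log2 fold changes -1.22 ± 0.17 (SE; adjusted p = 0.000102). For Col5a1 they were 575 ± 120.5 and 814 ± 87.1 CPM when fresh and 160.3 ± 6.31 and 130.1 ± 9.06 CPM after culture (-0.92 ± 0.19 SE, adjusted p = 0.00828). For Col4a1 the fresh groups thus stood further apart than the adipogenic groups. For Col5a1 the order turned, with VmSC5 higher when fresh and lower after culture. Its adipogenic libraries stood at 162.9, 153.1 and 164.9 CPM in VmSC4 and 119.9, 137.3 and 133.1 CPM in VmSC5, a difference that was not called. Col4a2, Col6a1 and Col6a2 lost the call in at least 4 fits with 1 library left out (adjusted p from 0.0538 to 0.0935), and the count was 4 without fresh VmSC5 replicate 2, adipogenic VmSC4 replicate 2 or adipogenic VmSC5 replicate 1 or 3.

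Floating cells of DTR+ mice held less collagen message than those of DTR- mice. Of 18 members tested 8 were lower and 0 higher, where 2.43% of all 11803 genes were called (0.491% higher, 1.94% lower), and the median log2 fold change was -2.41 against -0.04 for all genes. Col1a1 stood at 66.1 and 282 CPM in the 2 DTR- libraries and 8.28 and 0.954 CPM in the 2 DTR+ libraries (-4.98 ± 0.86 SE, adjusted p = 0.00479). Col1a2 stood at 121 and 180.3 CPM and 17.8 and 7.36 CPM (-3.24 ± 0.64 SE, adjusted p = 0.0098), and Col3a1 at 379.8 and 1190 CPM and 48.7 and 77.5 CPM (-3.07 ± 0.73 SE, adjusted p = 0.0268). The genotypes did not overlap in these genes, and DTR- replicate 3 was the highest library in each. With 2 libraries against 2 such separation arises easily by chance, and these genes were picked by their calls. The share of all genes without overlap was not counted, so the separation adds no support to the calls. Col15a1, Col6a3, Col6a2 and Col5a2 were lower as well (-3.05 for Col15a1, adjusted p = 0.0208, -3.41 for Col6a3, adjusted p = 0.027, -2.51 for Col6a2, adjusted p = 0.036, and -2.5 for Col5a2, adjusted p = 0.0378), and Col8a1 had 0 counts in DTR+ and was at least 14-fold lower against the floor of 3 counts over the group. Col4a1 and Col4a2, at 596 and 1164 and 521 and 956 CPM in DTR- and 153 and 146 and 226 and 164 CPM in DTR+, were not called (-2.08 ± 0.64 SE, adjusted p = 0.1, and -1.49 ± 0.62 SE, adjusted p = 0.232), and type IV made up 33.4% ± 0.809 of collagen counts in DTR- and 46.3% ± 2.45 in DTR+. All 8 calls were lost without DTR- replicate 3, 7 without DTR- replicate 2, and 6 with the replicate number as a block, which left 2, while the count was 14 and 15 without DTR+ replicates 2 and 3. Beside these differences, the 8 fibroblast markers summed to 25747 to 30489 CPM in DTR- and 6195 to 11843 CPM in DTR+, the 9 endothelial markers to 491 to 617 and 22.1 to 46.3 CPM and the 7 macrophage markers to 338 to 414 and 99.6 to 146 CPM, with none at 0 counts in either genotype, whereas the 8 adipocyte markers summed to 27874 to 30462 and 28192 to 33678 CPM. Their part in the collagen differences was not tested.

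Treg cells held little collagen message, and no difference between KO and WT passed the test among the members that passed the low-count filter. Of the 44 members 5 passed the filter on low counts, and edgeR called 0 of them at n = 3 against 3, where 0.0526% of all 11416 genes were called (0.00876% higher, 0.0438% lower). An unadjusted p under 0.05 was reached by 1 member, and DESeq2 called 0. Col18a1 stood at 12.4, 10.2 and 9.22 CPM in WT and 6.95, 4.64 and 8.06 CPM in KO (-0.63 ± 0.44 SE, adjusted p = 0.68). Col11a2, a cartilage fibril chain, stood at 4.96, 7.78 and 6.41 CPM and 3.12, 2.65 and 1.49 CPM (-1.35 ± 0.61 SE, adjusted p = 0.479). The remaining members tested, Col6a4, Col9a3 and Col23a1, had log2 fold changes of -1.13 ± 0.88, -0.47 ± 0.69 and 0.04 ± 0.6. Without that filter, Col3a1, at 6.76, 1.2 and 9.22 CPM in WT and 0.479, 0.663 and 0 CPM in KO, was called lower (log2 fold change -3.95, adjusted p = 0.048), on 70 counts over the WT and 3 over the KO libraries. The fibrillar Col1a1 lay the other way and was not called, with 4, 3 and 9 counts in WT and 25, 26 and 7 in KO.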

How the data were processed

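Gene counts of 42 libraries were taken as deposited by the authors, in 1 table of whole-number counts. Per the submitters' processing notes the authors aligned reads to mm10 with STAR 2.7.3a and counted them with featureCounts; the annotation release, strand setting and treatment of shared reads are not given in the sources used here. Per the labels' protocols, libraries followed the ultra-low-input method of the Immunological Genome Project, from 1000 sorted cells, lysed culture wells or 2 ng of RNA from floating cells. Annotation was GENCODE M21 on GRCm38 (52936 symbols matched). Counts of each experiment were fitted over all genes with edgeR 4.0.16 in R 4.3.3 (quasi-likelihood F test, robust, TMM scaling, minimum count 10, two-sided), with Benjamini-Hochberg adjustment over all genes tested, and called at adjusted p under 0.05. Fresh cells were fitted once with the transferred and once with the adipogenic groups, so the comparisons against them share libraries. The SE is the size of the log2 fold change divided by the square root of F. A group at 0 counts was given a floor of 3 counts over the group, the 95% bound.

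The members, the types, the lists of 20 synthesis, 13 processing and 9 receptor genes, and the marker lists were chosen with earlier results of these data known. Named are 14 major chains in every group, other members from 20 CPM in a group mean, the called members with the smallest adjusted p, up to 8 in a direction, members of a type that moved against the rest of it, and up to 3 called genes of a list in a direction. Osm, Adipoq and markers serve to check labels. Overlap of libraries is given for named genes only, and the share of all genes without overlap was not counted. Each library was left out in turn, and the fits were repeated with DESeq2 1.42.0, with RLE scaling, without the filter, and with replicate number as a block. The steps were tested on simulated data.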

Additional observations from a re-analysis of the deposited data

Results flagged for a closer look

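The difference between the adipogenic response of VmSC5 and that of VmSC4 passed the test itself for 7 collagen genes, each with the larger fall in VmSC5. The differences of the log2 fold changes were -1.22 for Col4a1, -0.93 for Col5a3, -0.92 for Col5a1, -0.86 for Col6a3, -0.86 for Col4a2, -0.84 for Col6a1 and -1.06 for Col6a2. None of the 7 was called between the 2 adipogenic groups, and Col4a1, Col5a3, Col5a1, Col6a3 and Col6a1 were called between the fresh groups, where Col4a2 (0.83, adjusted p = 0.115) and Col6a2 (0.77, adjusted p = 0.082) were not.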

How the results depend on the processing

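Of 218 results for single collagen genes, 156 kept their call and direction under each alternative run. A direction reversed only for Col4a2 and Col6a2 in the Treg cultures (log2 fold changes of -0.16 and -0.13, neither called), which were 0.06 (adjusted p = 0.49) and 0.14 (adjusted p = 0.0407) without replicate 3 with Treg and -0.33 and -0.31 without replicate 1 with Treg. With all libraries kept, counts of called members moved by over 1.5 times in 2 comparisons. The floating cells had 2 with the replicate number as a block, against 8, and the Treg KO comparison had 1 (Col3a1) without a low-count filter, against 0. Leaving 1 library out moved the count by over 1.5 times in further comparisons. With 1 library left out the count ranged from 11 to 20 between fresh VmSC5 and VmSC4 (17 in the full fit), 0 to 5 for VmSC4-derived VmSC5 against VmSC4-derived VmSC4 (4), 2 to 11 against VmSC5-derived VmSC5 (7), 22 to 27 and 19 to 25 for transferred against fresh VmSC4 (25) and VmSC5 (23), 27 to 29 and 29 to 31 for adipogenic against fresh VmSC4 (28) and VmSC5 (30), 4 to 10 for the difference of these responses (7), 0 to 15 in floating cells (8), 15 to 20 with Treg (18), 17 to 18 with OSM (17), 14 to 17 for the difference of the last pair (16), and 0 to 0 for adipogenic VmSC5 against VmSC4 and for the Treg KO. Floating cells had 0 calls without DTR- replicate 3, 1 without DTR- replicate 2, and 14 and 15 without DTR+ replicates 2 and 3. With Treg, Col18a1 lost its call under RLE scaling, DESeq2, no filter and the replicate block, and Col4a5 under the last 3. Same-numbered libraries deviated with correlations of at most 0.0934, and of -0.392 in the floating cells. With 2 or 3 libraries in a group these values cannot decide whether the numbers mark pairs. The replicate block gave 16 calls with Treg and 17 with OSM. A block with crossed numbers, added after the data were seen, gave 12 in the floating cells. With 2 libraries per genotype the crossed numbering mirrors the same-numbered one, so no conclusion on pairing is drawn from this count. Depth limits which members could be tested: 21 of 44 passed the low-count filter in the cultures with PBS and OSM (1072147 to 2078534 counts) and 5 in the Treg cells.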

Other observations

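Some members at low level were highest outside the stromal cells. In WT Treg cells Col11a2 averaged 6.38 ± 1.41 CPM (SD, n = 3) and Col9a3 3.85 ± 0.995 CPM, and 8 of the 44 members had their highest group mean there, all under 7 CPM. Col9a3, a cartilage chain, also rose in VmSC5 with Treg, from 0.695, 1.07 and 0.43 CPM to 2.4, 3.75 and 3.48 CPM, while the T cell markers of those cultures summed to 3.06 to 4.29 CPM. Col23a1 stood at 0, 0.962 and 0 CPM with PBS and 6.42, 6.53 and 9.2 CPM with OSM, and at 7.31 CPM in fresh VmSC4 and 5.95 CPM in fresh VmSC5.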
